A study of Homo sapiens with 8 samples.

Results

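The 10 genes CCNG2, TNFSF10, PDK4, FBXO32, KLF6, BCL6, TXNIP, FOXO1, FOXO3 and KLHL24 were taken from a list of names as FOXO targets and FOXO factors, a list drawn up with earlier results of these data known, and all 10 were found among the 19775 genes measured. They were followed in NCI-H1975, an established human lung adenocarcinoma line driven by mutant EGFR, on 8 Affymetrix U133 Plus 2.0 arrays. The 4 drug treatments, each lasting 24 hours, were vehicle (DMSO), osimertinib at 10 nM, alpelisib at 1 µM, and the 2 drugs together (the combination), and every treatment was run both with 2 mM L-histidinol and in its absence. All groups were the same line in serum-containing medium with kanamycin, and the labels name no genetic change. Osimertinib binds mutant EGFR covalently and blocks it, alpelisib blocks PI3K alpha, and L-histidinol is a histidine analog that mimics starvation for histidine. Each of the 8 conditions had 1 array, so a drug treatment was compared over 2 arrays against 2, and L-histidinol over 4 pairs of arrays.

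FOXO factors are transcription factors held in the cytoplasm when AKT, the kinase downstream of growth factor receptors and PI3K, phosphorylates them. When that signal falls they enter the nucleus and bind DNA at sites with the core AAACA. Their targets slow the cell cycle, promote cell death, shift fuel use, drive protein breakdown and, through receptors and adaptors such as ERBB3 and IRS2, restore upstream signaling. The arrays measure transcripts and not FOXO phosphorylation or location.

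RefSeq gave sequence upstream of a transcription start for 9 of the 10 genes, and 5 starts are shown here, those of CCNG2, TNFSF10, PDK4 and KLHL24, which differed most with the combination among the 9, and that of TXNIP, which holds the most specific motifs. FBXO32 has no entry. Each line is the 250 bases before 1 annotated start, 5′ to 3′ on the gene's strand (GRCh38.p14). Capitals mark the FOXO core AAACA on either strand (AAACA or TGTTT), the full FOXO element GTAAACA, the variant ATAAACA, the E-box CACGTG, and the carbohydrate response element (CACGNG, then any 5 bases, then CACGNG again), at which MondoA and its relatives bind. All were searched on both strands. The lines are TXNIP at chr1:145996580-145996829 (minus strand), KLHL24 at chr3:183635373-183635622 (plus strand), TNFSF10 at chr3:172523431-172523680 (minus strand), PDK4 at chr7:95596517-95596766 (minus strand) and CCNG2 at chr4:77156957-77157206 (plus strand).
TXNIP: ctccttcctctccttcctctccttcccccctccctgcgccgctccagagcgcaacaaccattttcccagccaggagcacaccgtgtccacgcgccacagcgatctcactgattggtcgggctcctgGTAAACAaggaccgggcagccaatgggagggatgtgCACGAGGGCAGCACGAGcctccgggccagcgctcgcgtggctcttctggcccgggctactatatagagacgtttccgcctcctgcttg
KLHL24: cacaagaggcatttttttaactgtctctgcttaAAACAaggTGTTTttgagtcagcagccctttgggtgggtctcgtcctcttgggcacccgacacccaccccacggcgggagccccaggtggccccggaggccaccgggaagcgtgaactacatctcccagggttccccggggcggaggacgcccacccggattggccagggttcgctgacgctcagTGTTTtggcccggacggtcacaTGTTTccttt
TNFSF10: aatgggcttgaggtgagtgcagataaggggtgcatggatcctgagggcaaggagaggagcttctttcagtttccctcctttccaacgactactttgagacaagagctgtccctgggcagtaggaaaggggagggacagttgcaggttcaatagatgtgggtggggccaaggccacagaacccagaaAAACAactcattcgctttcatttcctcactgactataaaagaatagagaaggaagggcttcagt
PDK4: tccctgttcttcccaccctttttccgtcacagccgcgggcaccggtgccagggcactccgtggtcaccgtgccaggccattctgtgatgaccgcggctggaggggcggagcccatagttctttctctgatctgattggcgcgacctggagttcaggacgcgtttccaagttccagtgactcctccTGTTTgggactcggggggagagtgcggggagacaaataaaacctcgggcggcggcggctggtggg
CCNG2: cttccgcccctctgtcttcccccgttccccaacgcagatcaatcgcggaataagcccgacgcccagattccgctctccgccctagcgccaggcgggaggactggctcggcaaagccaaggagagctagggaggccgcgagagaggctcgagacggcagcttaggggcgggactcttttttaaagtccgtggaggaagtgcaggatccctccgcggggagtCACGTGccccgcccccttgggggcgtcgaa

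Among 14 annotated starts of the 9 genes, 9 starts of 7 genes held the core AAACA within these 250 bases, a run of letters found before 40.4% of all 35116 starts in the RefSeq table. The full element GTAAACA, which contains the core, was found on either strand before 2.98% of all starts and in TXNIP alone among the 9 genes, 124 bases before the start shown. The variant ATAAACA was found before 3.77% of all starts and before 1 start of FOXO3. The TXNIP line also held the carbohydrate response element, 88 bases before the start, which 0.0456% of all starts had. The E-box CACGTG lay before 6.34% of all starts, and CCNG2 (30 bases before the start) and KLF6 (97 bases) had it. These letters are descriptions of the windows and are no measure of binding.

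Levels below are log2 intensity of 1 probe set per gene, on which 1 unit is a 2-fold difference, and levels of different genes are not compared. Median intensity per array lay between 21.8 and 22.4. All 7 markers of lung and simple epithelium had a mean log2 intensity of at least 5 (8.53 for the lung factor NKX2-1 to 13.1 for KRT7). Of 9 markers of blood, fibroblasts and endothelium 3 reached that level, CD79A (6.29), PDGFRB (5.38) and PECAM1 (5.18), while PTPRC, LUM and COL3A1 lay at 2.82, 2.17 and 2.83. Differences are fitted log2 values ± standard error, and a gene is called at a limma adjusted p below 0.05 over all 19775 genes. The labels do not say whether conditions were repeated in separate cultures, so p-values measure only the spread between these arrays.

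All 10 genes were higher with the combination than with vehicle, and each was called. The background was 21.4% of all genes called higher, 19.2% lower and 40.6% either way. Differences ran from 0.41 to 2.73 with a median of 1.80, beside a median of -0.001 over all genes. With osimertinib alone 9 of 10 were called higher (background 16.4% higher, 14% lower and 30.4% either way; median difference 0.78 against 0.01 over all genes), and with alpelisib alone 7 of 10 (background 7.08% higher, 4.38% lower and 11.5% either way; median 0.69 against -0.002). No member was called lower against vehicle with any drug treatment. On single arrays, every member was above its own vehicle array with every drug treatment, both without and with L-histidinol. Of all genes, 37.6% were above vehicle in both pairs with osimertinib, 32.6% with alpelisib and 36.7% with the combination. In such a bulk measurement a higher level in each cell and a larger share of cells with the transcript cannot be told apart. The 3 comparisons share the vehicle arrays.

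**Figure D1:**
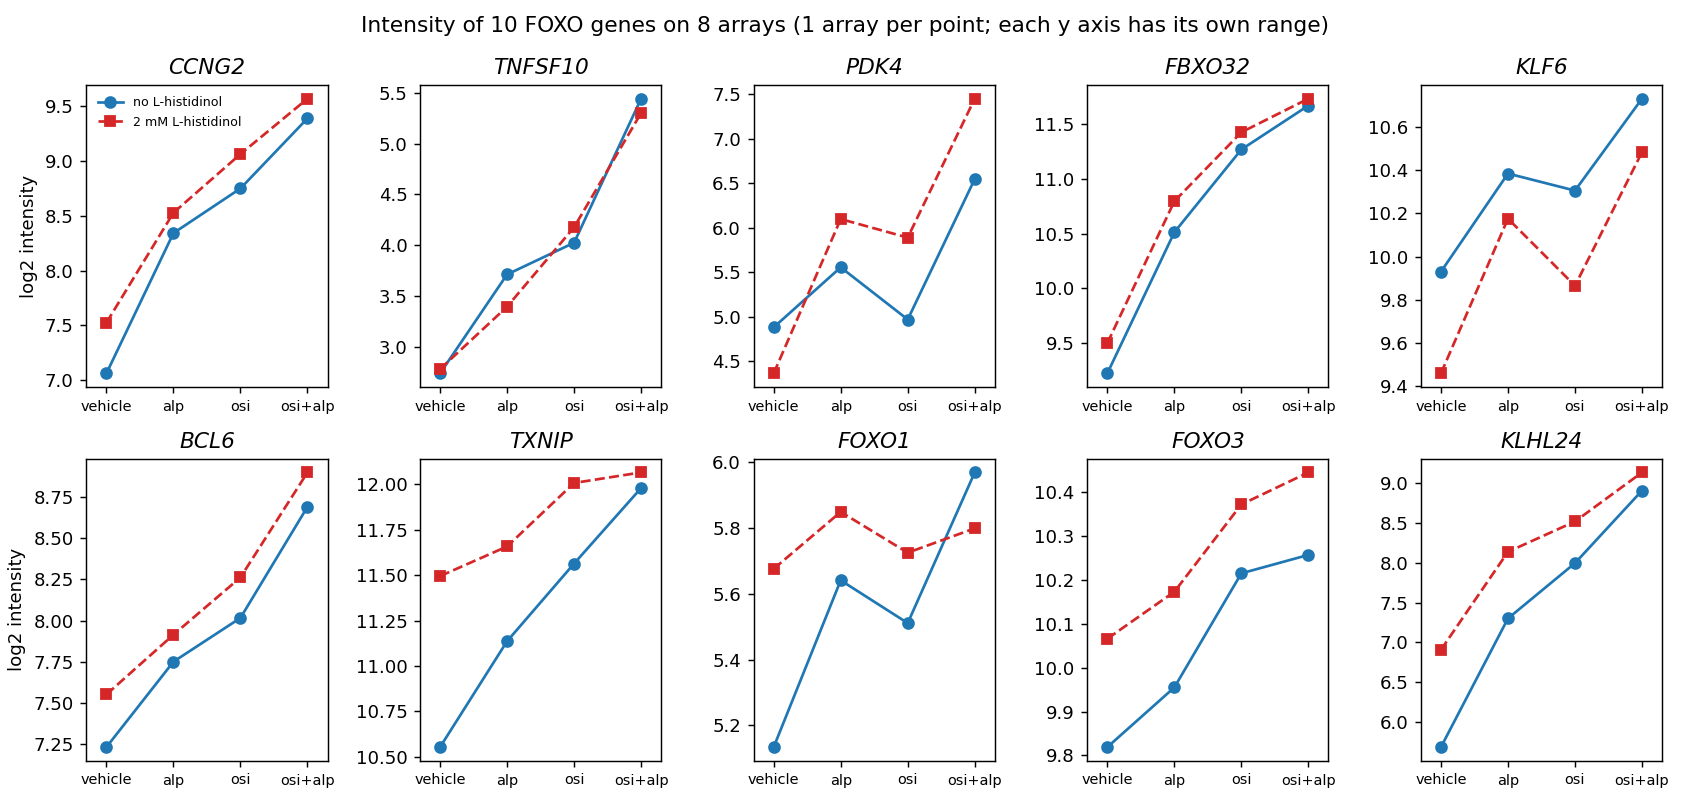
Log2 intensity (y axis, its own range in each panel) of the 10 genes on the 8 arrays, by drug treatment (x axis: vehicle, alpelisib, osimertinib, both), without L-histidinol (circles, solid lines) and with it (squares, dashed lines). Every drug array lies above the vehicle array of the same line, and KLF6 is the gene whose dashed line lies below the solid one at all 4 treatments.

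CCNG2, FBXO32 and KLHL24, genes of growth arrest and protein breakdown, were called with each drug alone and with both. CCNG2, an atypical cyclin linked to cell cycle exit, measured 7.06 with vehicle, 8.34 with alpelisib, 8.75 with osimertinib and 9.39 with the combination without L-histidinol. With L-histidinol the same 4 treatments gave 7.53, 8.53, 9.07 and 9.57. The 2 vehicle arrays lay below all 6 drug arrays, and the 2 arrays of the combination above all others. Against vehicle CCNG2 rose by 1.14 ± 0.08 with alpelisib (adjusted p = 5.36e-05), by 1.61 ± 0.08 with osimertinib (adjusted p = 3.82e-07) and by 2.19 ± 0.08 with the combination (adjusted p = 1.81e-08).

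FBXO32, the substrate receptor of an SCF ubiquitin ligase known from muscle atrophy, measured 9.22, 10.51, 11.27 and 11.67 in the same order without L-histidinol. With L-histidinol it measured 9.5, 10.80, 11.43 and 11.73. The 4 treatments did not overlap. FBXO32 rose by 1.29 ± 0.07 with alpelisib (adjusted p = 3.41e-06), by 1.98 ± 0.07 with osimertinib (adjusted p = 3.18e-08) and by 2.34 ± 0.07 with the combination (adjusted p = 3.93e-09).

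KLHL24, an adaptor of cullin-based ubiquitin ligases, had the largest difference of the 10 with the combination. It measured 5.68, 7.30, 7.996 and 8.91 without L-histidinol and 6.91, 8.14, 8.52 and 9.14 with it. Both vehicle arrays lay below every drug array, while alpelisib with L-histidinol (8.14) lay above osimertinib without it (7.996). KLHL24 rose by 1.43 ± 0.17 with alpelisib (adjusted p = 7.45e-04), by 1.97 ± 0.17 with osimertinib (adjusted p = 1.33e-05) and by 2.73 ± 0.17 with the combination (adjusted p = 3.58e-07), a 6.64-fold difference. The printed upstream line of KLHL24 holds the core AAACA or its complement 4 times. A BCL6 start that is not printed holds it 4 times as well, and the CCNG2 line has none. A link between these letters and the differences was not tested.

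TNFSF10 encodes TRAIL, a ligand that triggers death receptors. Its probe set was dim, at 2.74 with vehicle, 3.71 with alpelisib, 4.02 with osimertinib and 5.44 with the combination, and at 2.78, 3.40, 4.18 and 5.30 with L-histidinol. The order of the 4 treatments was the same without and with L-histidinol, and the treatments did not overlap. TNFSF10 rose by 0.79 ± 0.14 with alpelisib (adjusted p = 4.92e-03), by 1.34 ± 0.14 with osimertinib (adjusted p = 3.26e-05) and by 2.61 ± 0.14 with the combination (adjusted p = 1.22e-07). Its 2 vehicle levels lay below the lower quartile of all probe sets on those arrays, so the size of these differences depends on how low values are treated. With 16 added to the intensity they were 0.29 for alpelisib, 0.54 for osimertinib and 1.33 for the combination, each still called (adjusted p = 0.02, 1.62e-04 and 3.07e-07). Without the alpelisib array its alpelisib difference was 0.63 and not called (adjusted p = 0.0848).

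None of the TRAIL receptors was called higher beside the ligand. Of 5 receptor genes, 0 were called higher and 3 lower with the combination (background 21.4% of all genes higher and 19.2% lower), with a median difference of -0.39. Among so few genes a count of 0 higher lies near that share. The 2 not called were dim, TNFRSF10C at a mean of 4.47 and TNFRSF11B at 2.71. The difference was -0.76 ± 0.10 for the death receptor TNFRSF10A (adjusted p = 8.33e-05), -0.39 ± 0.08 for the death receptor TNFRSF10B (adjusted p = 1.26e-03) and -0.60 ± 0.14 for the decoy receptor TNFRSF10D (adjusted p = 4.1e-03). Osimertinib alone gave -0.97 ± 0.10 for TNFRSF10A (adjusted p = 3.75e-05) and -0.65 ± 0.14 for TNFRSF10D (adjusted p = 3.84e-03), where 14% of all genes were lower. No receptor was called with alpelisib alone (background 11.5% either way). L-histidinol raised TNFRSF10B by 0.39 ± 0.05 (adjusted p = 5.73e-04) and TNFRSF10D by 0.37 ± 0.10 (adjusted p = 0.0194), where 11.4% of all genes were higher.

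PDK4, a kinase that shuts off pyruvate dehydrogenase and so spares glucose, measured 4.88 with vehicle, 5.56 with alpelisib, 4.97 with osimertinib and 6.55 with the combination. With L-histidinol it measured 4.37, 6.10, 5.89 and 7.45. The osimertinib arrays were far apart, the one without L-histidinol being close to vehicle. PDK4 rose by 1.20 ± 0.27 with alpelisib (adjusted p = 0.0153) and by 2.37 ± 0.27 with the combination (adjusted p = 2.09e-05). Its osimertinib difference of 0.81 ± 0.27 only just passed (adjusted p = 0.0403), and it was 0.15 (adjusted p = 0.524) without the vehicle array with L-histidinol and 0.50 (adjusted p = 0.366) without the osimertinib array with L-histidinol. It was also not called without either alpelisib array, with quantile normalization or with 16 added to the intensity (adjusted p = 0.0543 to 0.0760). The alpelisib call was lost without either alpelisib array (1.26 and 1.15, adjusted p = 0.103 and 0.203), and neither drug alone was called with the mean of all PDK4 probe sets (0.31 for osimertinib and 0.55 for alpelisib) or when the variances did not follow mean intensity (adjusted p = 0.104 and 0.0782). The combination difference was 1.24 with that mean and still called.

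The other kinases of pyruvate dehydrogenase did not all follow PDK4. With the combination PDK2 rose by 1.18 ± 0.09 (adjusted p = 1.3e-06) and PDK3 by 0.88 ± 0.11 (adjusted p = 3.31e-05), while PDK1 was lower, at -0.65 ± 0.09 (adjusted p = 6.53e-05).

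TXNIP, an arrestin-fold protein that restrains glucose uptake and thioredoxin, measured 10.55 with vehicle, 11.14 with alpelisib, 11.56 with osimertinib and 11.98 with the combination. With L-histidinol it measured 11.49, 11.66, 12.01 and 12.06, so that the vehicle array with L-histidinol lay above the alpelisib array without it. TXNIP rose by 0.76 ± 0.14 with osimertinib (adjusted p = 1.35e-03) and by 1.00 ± 0.14 with the combination (adjusted p = 1.03e-04). Alpelisib alone gave 0.37 ± 0.14, which was not called (adjusted p = 0.112), but it was called at 0.67 (adjusted p = 6.07e-03) without the vehicle array with L-histidinol, and without either array of the combination (adjusted p = 0.0143 and 0.0142).

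BCL6, a transcriptional repressor, measured 7.23, 7.75, 8.02 and 8.69 without L-histidinol and 7.55, 7.91, 8.26 and 8.90 with it, in the order vehicle, alpelisib, osimertinib, combination. No treatment overlapped another. It rose by 0.44 ± 0.08 with alpelisib (adjusted p = 4.93e-03), by 0.75 ± 0.08 with osimertinib (adjusted p = 3.19e-05) and by 1.40 ± 0.08 with the combination (adjusted p = 1.44e-07). The alpelisib call was lost without either alpelisib array (0.39 and 0.49, adjusted p = 0.0885 and 0.0812). With the mean of its probe sets the osimertinib difference was 0.40 and still called.

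KLF6, a zinc finger transcription factor of the early response to growth signals, measured 9.93, 10.39, 10.31 and 10.73 without L-histidinol and 9.46, 10.18, 9.87 and 10.48 with it. Here alpelisib lay above osimertinib in both sets of arrays, and neighbouring treatments overlapped, the alpelisib array with L-histidinol (10.18) lying below the osimertinib array without it. KLF6 rose by 0.59 ± 0.07 with alpelisib (adjusted p = 9.31e-04), by 0.39 ± 0.07 with osimertinib (adjusted p = 1.85e-03) and by 0.91 ± 0.07 with the combination (adjusted p = 1.8e-06). The alpelisib call was lost without the alpelisib array with L-histidinol (0.50, adjusted p = 0.0558), and the osimertinib call with the mean of its probe sets (0.20, adjusted p = 0.133).

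The transcripts of the FOXO factors themselves moved least. FOXO1 measured 5.13 with vehicle, 5.64 with alpelisib, 5.51 with osimertinib and 5.97 with the combination, and 5.68, 5.85, 5.73 and 5.799 with L-histidinol. The vehicle array with L-histidinol lay above the single drug arrays without it, so the treatments overlapped. Only the combination was called (0.48 ± 0.15, adjusted p = 0.0202). That call rested on the arrays without L-histidinol: it was lost without the vehicle array (0.25, adjusted p = 0.26) and without the combination array (0.23, adjusted p = 0.301), and with the mean of its probe sets (0.26, adjusted p = 0.212). Without the vehicle array with L-histidinol FOXO1 was called for alpelisib, at 0.57 (adjusted p = 0.0396).

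FOXO3 measured 9.82, 9.96, 10.22 and 10.26 without L-histidinol and 10.07, 10.17, 10.37 and 10.45 with it. Alpelisib overlapped vehicle, and the combination overlapped osimertinib. FOXO3 rose by 0.35 ± 0.06 with osimertinib (adjusted p = 7.36e-04) and by 0.41 ± 0.06 with the combination (adjusted p = 1.25e-04), while alpelisib gave 0.12 ± 0.06 (adjusted p = 0.226). Both factors changed by less than 1 log2 unit, below the median of the 10 genes with the combination.

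**Figure D2:**
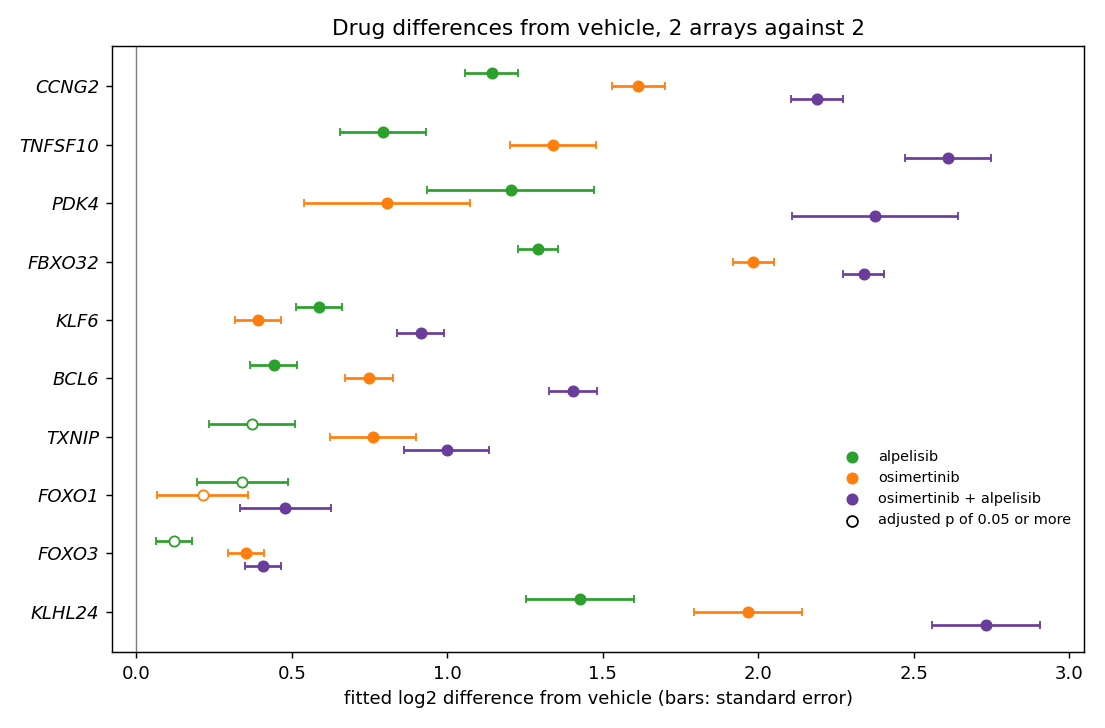
Fitted log2 difference from vehicle (x axis) with its standard error (bars) for each of the 10 genes (y axis) with alpelisib, osimertinib or both, 2 arrays against 2. Filled points passed an adjusted p of 0.05, and the open points are alpelisib for TXNIP, FOXO1 and FOXO3 and osimertinib for FOXO1.

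Over the 10 genes, leaving out 1 array at a time left 8 to 9 called with osimertinib and 9 to 10 with the combination. With alpelisib the count ranged from 4 to 9. It was 4 without the alpelisib array, when TNFSF10, PDK4 and BCL6 were lost, and 4 without the alpelisib array with L-histidinol, when PDK4, KLF6 and BCL6 were lost. CCNG2, FBXO32 and KLHL24 were called against vehicle with each drug treatment whichever array was left out.

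The members differed in which single drug gave the higher level. By the mean of the 2 arrays of a treatment, 7 genes ran in the order vehicle, alpelisib, osimertinib, combination, and PDK4, KLF6 and FOXO1 in the order vehicle, osimertinib, alpelisib, combination. The shares of all genes in these orders were not counted, so the orders cannot be called particular to the members. Osimertinib over alpelisib was called higher for 5 of 10 (background 5.54% higher, 5.51% lower and 11% either way): FBXO32 (0.69 ± 0.07), TNFSF10 (0.55 ± 0.14), CCNG2 (0.47 ± 0.08), BCL6 (0.31 ± 0.08) and FOXO3 (0.23 ± 0.06). The reverse order of PDK4 (-0.40 ± 0.27, adjusted p = 0.435), KLF6 (-0.20 ± 0.07, adjusted p = 0.131) and FOXO1 (-0.13 ± 0.15, adjusted p = 0.684) was not called. FBXO32 alone was called whichever array was left out. The count fell to 1 without either osimertinib array or without the alpelisib array with L-histidinol and to 2 without the alpelisib array, and it was 8 without either vehicle array. These counts take calls in either direction. Without either vehicle array they include PDK4, lower with osimertinib than with alpelisib (-0.40). With the mean of probe sets the count was 3. KLF6 was called lower with osimertinib than with alpelisib on its best unmarked probe set (-0.31, adjusted p = 0.0394).

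All steps between neighbours in the order vehicle, alpelisib, osimertinib, combination were called for CCNG2, TNFSF10, FBXO32 and BCL6. The share of all genes with every step called was not counted. For BCL6 the step from alpelisib to osimertinib was lost with the mean of its probe sets (0.05, adjusted p = 0.791). On another BCL6 probe set that step was -0.25 and not called. For KLHL24 the step from alpelisib to osimertinib (0.54 ± 0.17) missed the threshold (adjusted p = 0.0757). For PDK4 and KLF6 the step between the single drugs was the one not called. For TXNIP and FOXO1 no step between neighbours was called, and for FOXO3 only that from alpelisib to osimertinib was.

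Adding alpelisib to osimertinib raised 7 of 10 genes (background 5.96% higher, 7.41% lower and 13.4% either way; median difference 0.55 against -0.01 over all genes). PDK4 rose by 1.57 ± 0.27 (adjusted p = 3.62e-03, or 0.93 with the mean of its probe sets), TNFSF10 by 1.27 ± 0.14 (adjusted p = 4.72e-04, or 0.79 with 16 added), and so did KLHL24 (0.77 ± 0.17, adjusted p = 0.0147) and BCL6 (0.66 ± 0.08, adjusted p = 6.17e-04). CCNG2 (0.57 ± 0.08), KLF6 (0.52 ± 0.07) and FBXO32 (0.35 ± 0.07) rose as well. TXNIP (0.24 ± 0.14, adjusted p = 0.319), FOXO1 (0.27 ± 0.15, adjusted p = 0.285) and FOXO3 (0.06 ± 0.06, adjusted p = 0.604) were not called. Without the osimertinib array 4 genes were called, PDK4, FBXO32 and KLHL24 being lost (adjusted p = 0.0654, 0.0543 and 0.0659). FBXO32 and KLHL24 were also lost without the combination array and without the osimertinib array with L-histidinol, and both were lost when the variances did not follow mean intensity. Without the combination array with L-histidinol TXNIP (0.51) and FOXO1 (0.51) were called too.

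Adding osimertinib to alpelisib raised 9 of 10 genes (background 14.6% higher, 14.4% lower and 29% either way; median 1.00 against 0.01 over all genes). KLHL24 (1.30 ± 0.17, adjusted p = 1.88e-04), PDK4 (1.17 ± 0.27, adjusted p = 6.08e-03) and the dim TNFSF10 (1.82 ± 0.14, adjusted p = 5.94e-06, or 1.05 with 16 added to the intensity) were among them. FOXO1 was the gene not called (0.14 ± 0.15, adjusted p = 0.564). Without the alpelisib array 5 genes were called, and PDK4, KLF6, TXNIP and FOXO3 were lost (adjusted p = 0.0619 to 0.151). TXNIP was also lost without the combination array (adjusted p = 0.0507), and PDK4 without the combination array with L-histidinol (adjusted p = 0.0519).

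Whether the combination gave the sum of the single drugs was tested as the departure from that sum on the log2 scale. FBXO32 was the only member called, at -0.94 ± 0.09 (adjusted p = 5.03e-03; background 0.0303%, or 6 of 19775 genes, all lower). Its single drug differences summed to 3.28, and the combination gave 2.34. KLHL24 (-0.66 ± 0.25, adjusted p = 0.456) and CCNG2 (-0.57 ± 0.12, adjusted p = 0.164) also lay below the sum, and TNFSF10 (0.48 ± 0.20, adjusted p = 0.508), PDK4 (0.37 ± 0.38) and BCL6 (0.22 ± 0.11) above it, none of them called. All 6 other FBXO32 probe sets had the same sign and 2 of them were called. The FBXO32 call was lost when either array of osimertinib or of alpelisib was left out (-0.996 to -0.88, adjusted p = 0.0617 to 0.14), with the mean of its probe sets (-0.77, adjusted p = 0.0704) and when the variances did not follow mean intensity (adjusted p = 0.288).

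**Figure D3:**
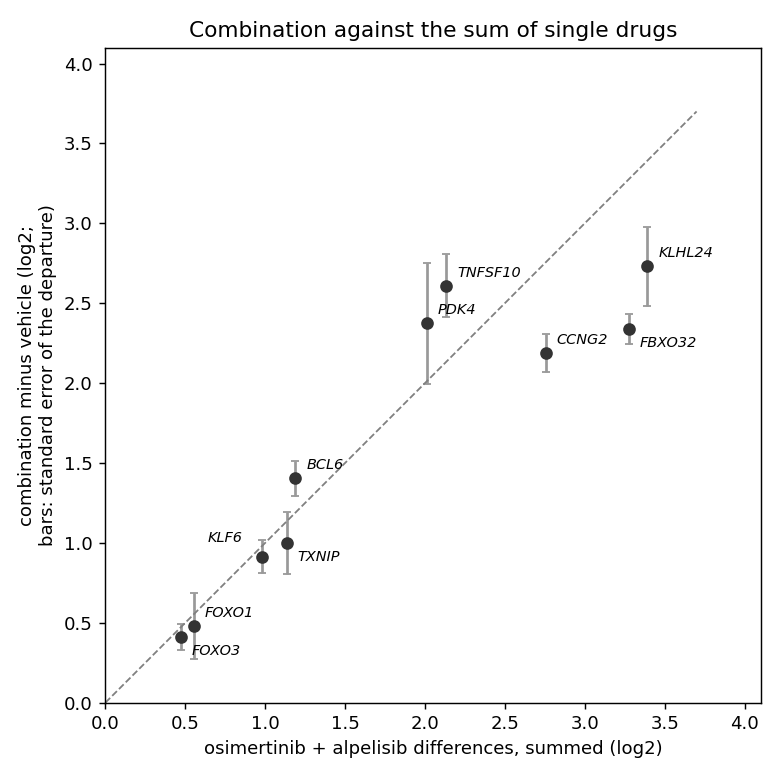
Combination minus vehicle (y axis, log2) against the sum of the osimertinib and alpelisib differences from vehicle (x axis, log2) for the 10 genes. The dashed line marks equality and bars are the standard error of the departure. FBXO32 lies at 3.28 and 2.34, below the line, and TNFSF10 and PDK4 lie above it.

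With L-histidinol 7 of the 10 genes were called. Over the 4 pairs of arrays 6 of 10 were called higher (background 11.4%) and 1 lower (background 9.17%, or 20.6% either way), with a median of 0.22 against -0.01 over all genes. KLHL24 rose by 0.70 ± 0.12 (adjusted p = 2.24e-03), TXNIP by 0.50 ± 0.10 (adjusted p = 4.15e-03), CCNG2 by 0.29 ± 0.06 (adjusted p = 5.87e-03) and BCL6 by 0.23 ± 0.05 (adjusted p = 0.0101). FOXO3 rose by 0.20 ± 0.04 (adjusted p = 5.02e-03) and FBXO32 by 0.20 ± 0.05 (adjusted p = 0.0112). KLF6 was the member that fell, with a difference of -0.34 ± 0.05 (adjusted p = 1.07e-03), and it was lower in all 4 pairs.

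FOXO1 (0.20 ± 0.10, adjusted p = 0.219), PDK4 (0.46 ± 0.19, adjusted p = 0.116) and TNFSF10 (-0.07 ± 0.10, adjusted p = 0.711) were not called for L-histidinol. The call of FBXO32 was lost when any 1 of the 4 single drug arrays was left out (adjusted p = 0.0501 to 0.0977), and that of BCL6 without either osimertinib array (adjusted p = 0.0652 and 0.0661). PDK4 was called without either vehicle array (0.79), and FOXO1 without either array of the combination (0.32). With the mean of probe sets CCNG2, FBXO32 and BCL6 were lost and 4 genes were called, KLHL24 at 0.46. For ACTB, the control whose 3′ over 5′ signal reports RNA integrity, that ratio was 1.04 to 1.07 without L-histidinol and 1.10 to 1.15 with it. The GAPDH ratio was 0.978 to 1.01 without it and 0.966 to 0.982 with it. Their part in these differences was not tested.

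The L-histidinol difference of several genes was largest in vehicle and smallest with the combination. KLHL24 was higher with L-histidinol by 1.23 in vehicle, 0.84 with alpelisib, 0.52 with osimertinib and 0.23 with the combination. For TXNIP the same differences were 0.94, 0.52, 0.44 and 0.09, and for FOXO1 0.54, 0.21, 0.21 and -0.17. Each of these is 1 array minus 1 array and has no replicate check.

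PDK4 ran the other way on the probe set used. It was lower with L-histidinol by -0.52 in vehicle and higher by 0.54 with alpelisib, 0.92 with osimertinib and 0.90 with the combination. KLF6 was lower in every treatment, by -0.47, -0.21, -0.44 and -0.25 in the same order.

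Tested as an interaction, the change of the L-histidinol difference by osimertinib was not called for any of the 10 genes, nor for any of all 19775 genes, with limma and the variance prior of the additive fit. At an unadjusted p below 0.05 there were 4 of 10 members and 1653 of all genes. The differences were 0.90 ± 0.24 for PDK4 (adjusted p = 0.366), -0.66 ± 0.12 for KLHL24 (adjusted p = 0.172), -0.47 ± 0.08 for TXNIP (adjusted p = 0.169) and -0.35 ± 0.16 for FOXO1 (adjusted p = 0.595). The change by alpelisib was likewise not called for any gene, with 4 of 10 members and 998 of all genes at an unadjusted p below 0.05, among them TXNIP at -0.39 ± 0.08 (adjusted p = 0.437). With the prior estimated from the interaction fit itself, which rests on 1 residual degree of freedom, 3 members were called for osimertinib (PDK4, KLHL24 and TXNIP) and 1 for alpelisib (TXNIP).

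**Figure D4:**
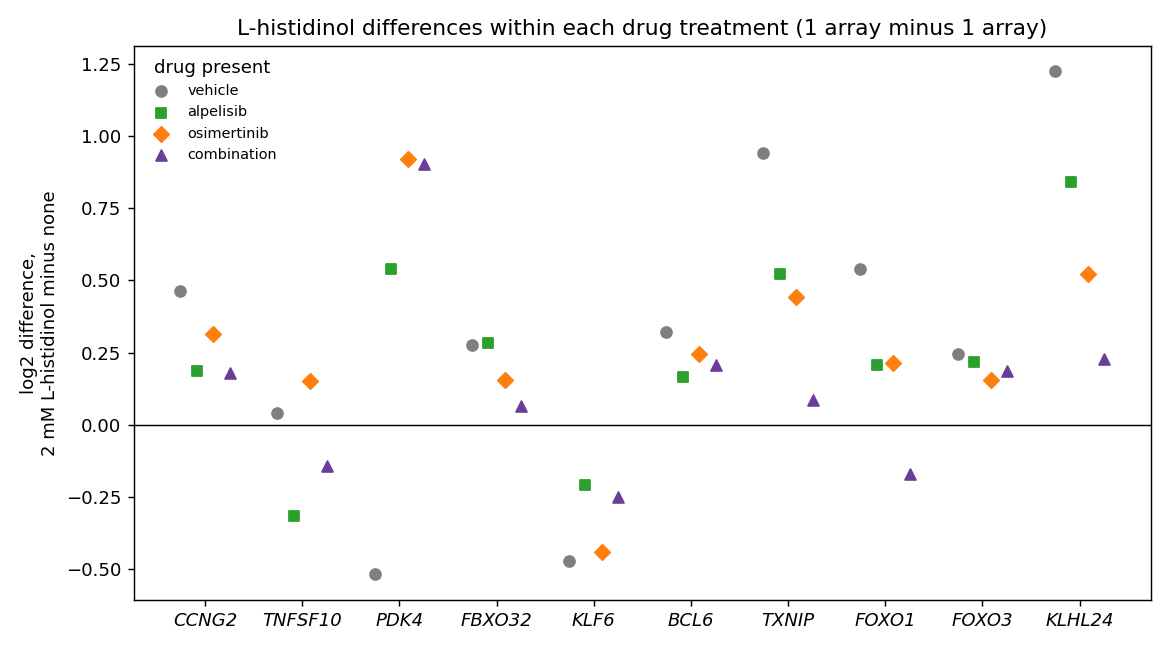
Log2 difference of the array with 2 mM L-histidinol from the array without it (y axis) for each gene (x axis), within vehicle (circles), alpelisib (squares), osimertinib (diamonds) and the combination (triangles), 1 array minus 1 array. KLHL24 runs from 1.23 in vehicle to 0.23 with the combination, PDK4 from -0.52 in vehicle to 0.92 with osimertinib, and KLF6 lies below 0 throughout.

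The genes were also read on their 31 other probe sets. With the combination 29 of 31 had the sign of the probe set used and 25 of these were called, while 0 were called in the opposite direction. The exceptions in sign were a CCNG2 probe set with a mean of 4.19 (-0.07) and a FOXO1 probe set with a mean of 2.52 (-0.15). All 6 other FBXO32 probe sets were called, at 0.75 to 2.46. For KLHL24 3 of 4 were called, and the one that was not, at 0.10, carries a mark of possible cross-hybridization. The KLHL24 probe set called at 2.35 carries such a mark too, as do the probe sets used for TNFSF10, KLF6, TXNIP and FOXO1. The single drugs had less support: with osimertinib 26 of 31 had the sign of the probe set used and 17 were called. With alpelisib these counts were 27 and 15, and 0 were called in the opposite direction with either drug. For PDK4 and for BCL6, 0 of 2 were called with either single drug. With osimertinib 6 of 6 were called for FBXO32, but 1 of 3 for FOXO3 and 1 of 4 for KLF6. For L-histidinol 24 of 31 had the sign of the probe set used and 10 were called, among them 3 of 4 for KLHL24, 2 of 2 for TXNIP and 3 of 4 for KLF6, but 0 of 6 for FBXO32 and 0 of 2 for BCL6.

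**Figure D5:**
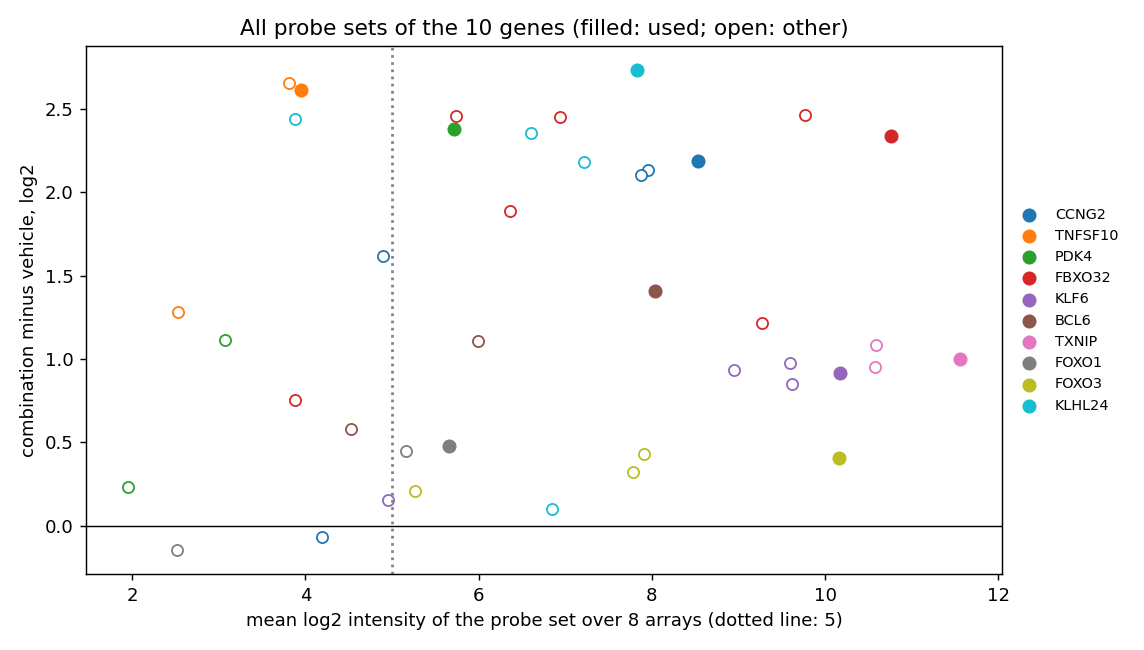
Combination minus vehicle (y axis, log2) against mean log2 intensity over the 8 arrays (x axis) for every probe set of the 10 genes, filled where it was the one used and open otherwise. The 2 points below 0 are 1 probe set each of CCNG2 and FOXO1, both left of the dotted line at a mean of 5.

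Of 28 further genes listed as FOXO targets 27 were measured. With the combination 18 were called higher and 2 lower, EIF4EBP1 (-0.56) and BNIP3 (-0.34), named because the count is small, with a median difference of 0.88, where 21.4% of all genes were higher and 19.2% lower. With osimertinib 16 were higher and 1 lower (16.4% and 14% of all genes), and with alpelisib 12 higher and 1 lower (7.08% and 4.38% of all genes). The receptor ERBB3 rose by 1.94 ± 0.07 with the combination, the autophagy kinase ULK1 by 1.74 ± 0.09, the insulin receptor substrate IRS2 by 1.74 ± 0.12 and the autophagosome protein GABARAPL1 by 1.55 ± 0.11. IRS2 was higher with alpelisib than with osimertinib, the difference being -0.54 ± 0.12 for osimertinib minus alpelisib (adjusted p = 0.0153). With L-histidinol 8 of the 27 were higher and 4 lower, beside 11.4% and 9.17% of all genes, IRS2 rising by 0.87 ± 0.08.

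Genes that act on FOXO factors, from receptors and PI3K subunits to AKT kinases, cytoplasmic anchors and nuclear partners, did not share this direction. Of 34 listed 31 were measured, and with the combination 7 were called higher and 11 lower, with a median of -0.05. Of all genes 21.4% were called higher, 19.2% lower and 40.6% either way, so that the share higher was near the background. SKP2, the ubiquitin ligase subunit that targets FOXO1 and the cell cycle inhibitor CDKN1B, was lower, at -1.31 ± 0.11 (adjusted p = 2.07e-06). The AKT phosphatase PHLPP2 fell by 0.67 ± 0.12, while SGK1, an AKT-related kinase that also phosphorylates FOXO3, rose by 0.97 ± 0.13 and the lipid phosphatase INPP4B by 0.63 ± 0.11.

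Relatives of the members, chosen by family, gave 8 of 16 higher and 3 lower with the combination (median 0.30), beside 21.4% and 19.2% of all genes, so that the share lower was near the background. For L-histidinol 7 of 16 were higher and 3 lower, beside 11.4% and 9.17% of all genes. KLF2, also a FOXO target, went the way of KLF6: it gave -0.62 ± 0.09 with L-histidinol (adjusted p = 8.45e-04) and rose by 0.63 ± 0.13 with the combination (adjusted p = 1.95e-03). Of the listed arrestin-fold relatives of TXNIP, ARRDC3 and ARRDC4 were singled out after their values were seen, and ARRDC2 is not described. ARRDC4 rose by 0.74 ± 0.10 (adjusted p = 4.17e-04) and ARRDC3 by 0.54 ± 0.08 (adjusted p = 1.09e-03) with L-histidinol, and with the combination, where TXNIP was called, they gave -0.21 ± 0.14 (adjusted p = 0.263) and -0.07 ± 0.12 (adjusted p = 0.706).

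Profiles over the 8 arrays were compared after centring each gene on its own mean, as the root mean square of their log2 differences. CCNG2 and FBXO32 were the closest pair of members, at 0.15, and FOXO1 and FOXO3, which both moved little, followed at 0.17. Among genes with a mean of at least 5, the closest to CCNG2 were IFITM1 (0.13), OSER1-DT (0.13) and ADGRV1 (0.14). For FBXO32 they were YPEL5 (0.13), CCNG2 and PAPLN (0.18), and for KLHL24 MAP2 (0.19), TMC4 (0.24) and ADGRV1 (0.25). TNFSF10 was nearest to TMEM140 (0.18), PDK4 to CLEC2B (0.29), BCL6 to TPP1 (0.06), TXNIP to RPS6KA2 (0.09) and KLF6 to KIF3C (0.08). These distances describe 8 arrays and scale with how far a gene moves.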

How the data were processed

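Per the submitters' processing notes the authors made the deposited values, linear intensity per probe set, with RMA and affy, of versions not given in the sources here. The design had assumed log2 values, so the log2 of each intensity was taken, without further scaling. Of 54675 probe sets, 41091 carried 1 gene symbol, 1801 several, 11721 none and 62 were controls, and for each of 19775 genes the probe set of 1 symbol with the highest mean was used. Symbols were checked through Entrez identifiers against the RefSeq table (41037 matched).

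limma 3.58.1, run in R 4.3.3, gave additive effects of L-histidinol and of the drug treatment (4 levels), with variances following mean intensity (3 residual and 8.08 prior degrees of freedom) and Benjamini-Hochberg adjustment over all genes. The spread is the departure from additive effects, so it holds any real interaction, and precision is limited by the number of arrays. For interactions with L-histidinol all 2-way terms were fitted (1 residual degree of freedom) and variances shrunk with the prior of the additive fit. On simulated data with 200 changed genes among 19775, 98% of 1-unit changes were recovered for osimertinib and 41.5% for the interaction of L-histidinol with osimertinib. For 0.5-unit changes these shares were 29% and 0%, so real differences of that size could go uncalled. With so few changed genes the adjustment is stricter than in the data, where 30.4% of all genes were called for osimertinib. The simulated osimertinib shares therefore need not hold for the data.

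The members, lists and tests were chosen with earlier results of these data known. All members are described. Of each list all measured genes are counted, and values are given for up to 4 with a mean of at least 5 and the largest combination difference. EIF4EBP1, BNIP3, ARRDC3 and ARRDC4 fall outside this rule and were named after their values were seen. For each member the 3 nearest genes were found, and some of them are named. Alternatives were the choice of probe set, scaling, a filter on dim genes, 16 added to the intensity, the variance model, 2-way terms and leaving out each array. Python 3.11.15, numpy 2.4.6, pandas 2.3.3 and matplotlib 3.10.9 were used.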

Additional observations from a re-analysis of the deposited data

Results flagged for a closer look

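FBXO32 was picked out by a test of whether its response to osimertinib depended on alpelisib. With both drugs it fell short of the added single drug differences, by -0.94 on the log2 scale (limma adjusted p = 5.03e-03). All 6 other probe sets had the same sign and 2 were called. The call was lost with the mean of its probe sets (-0.77, limma adjusted p = 0.0704). It was also lost when the variances did not follow mean intensity, or when a single drug array was left out.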

How the results depend on the processing

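The member values recomputed under the alternatives include the departure and the interactions with L-histidinol, where few calls could be lost. Of all 1720, 1542 kept their side of the threshold without a change of a called sign. With the sign unchanged, 125 lost their call and 38 gained one. A further 69 changed sign while called under neither setting and are counted among those kept. Called values changed sign 15 times, all on other probe sets of the same genes, none of them called there, so these lost their call as well. The CCNG2 probe set at a mean of 4.19 gave -0.13 for osimertinib, -0.033 for alpelisib, -0.068 for the combination, -0.035 for the combination over alpelisib, -0.10 for osimertinib over alpelisib and -0.039 for L-histidinol. Others gave -0.012 for PDK4 and -0.24 for KLF6 with osimertinib, -0.094 and -0.068 for KLHL24 with osimertinib and alpelisib, -0.15 for FOXO1 with the combination, -0.25 for BCL6 in osimertinib over alpelisib, and -0.022, -0.0052 and -0.083 for FBXO32 with L-histidinol. The cause was not tested.

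The numbers here count calls in either direction. The number of members called for osimertinib over alpelisib, 5, was 3 with the mean of probe sets, 3 with variances that did not follow intensity and 9 with all 2-way terms. The 9 include PDK4 (-0.40) and KLF6 (-0.20), both lower with osimertinib than with alpelisib. For L-histidinol the 7 became 4 with the mean of probe sets. For the departure from the sum the 1 became 0 with the mean of probe sets, 0 with variances not following intensity and 3 with all 2-way terms. The 2-way terms with their own prior gave 3 in place of 0 for the interaction of L-histidinol with osimertinib and 1 in place of 0 for that with alpelisib. Over arrays left out in turn, the counts ranged from 8 to 9 for osimertinib, 4 to 9 for alpelisib, 9 to 10 for the combination, 4 to 9 for the combination over osimertinib, 5 to 9 for the combination over alpelisib, 1 to 8 for osimertinib over alpelisib, 5 to 8 for L-histidinol and 0 to 1 for the departure. The interactions with L-histidinol leave no residual degree of freedom without 1 array and were not refitted. Without dim genes TNFSF10 has no value, and without marked probe sets TXNIP and FOXO1 have none. Levels of TNFSF10 lie near the dim end, which limits its fold values. The additive fit already pairs arrays, since it compares L-histidinol within drug treatments. The labels give no replicate numbers for any further pairing.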
